A study of Mus musculus with 11 samples.

Results

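The insulin-like growth factor (IGF) axis with H19 was followed as 10 genes, of the 54232 genes in the raw count table, in orthotopic pancreatic tumors from hosts with or without protein kinase N2 (PKN2). The genes were taken by name after Ensembl identifiers were matched to symbols in GENCODE M21. They were the ligands Igf1 and Igf2, the receptors Igf1r and Igf2r, the binding proteins Igfbp3, Igfbp4, Igfbp5, Igfbp6 and Igfbp7, and the imprinted RNA H19. Each symbol matched 1 row. Of the 10 genes, 9 passed the filter on low counts and were among the 16536 genes tested, and Igf2, at 0 to 3 counts per tumor, did not pass.

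IGF ligands act through the receptor tyrosine kinase IGF1R, which signals through insulin receptor substrates to PI3K and AKT, whereas IGF2R carries no kinase and takes IGF2 to the lysosome. Binding proteins hold the ligands outside the cell and are cut by proteases such as PAPP-A. In the pancreatic tumor, fibroblasts and macrophages are known sources of IGF1. Igf2 and H19 are neighbors under shared imprinting control, with Igf2 active on the paternal allele and H19 on the maternal allele.

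Bulk RNA sequencing covered 11 tumors from female C57BL/6 littermates, namely 6 grown in KO hosts (replicates A to F) and 5 in WT hosts (A to E). All hosts were heterozygous for RosaCreERT2, a ubiquitous tamoxifen-inducible Cre, and all received tamoxifen as adults. WT hosts were Pkn2+/+, and KO hosts were Pkn2 fl/fl. All tumors grew from TB32048 cells, 1 carcinoma line from a female KPC mouse with intact Pkn2, so that the deletion lay in host cells of every type and carcinoma transcripts came from Pkn2-intact cells in both groups. A part of each tumor was sequenced, and in such bulk samples fewer cells of a type and less RNA per cell cannot be told apart.

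Library totals ranged from 16294128 to 31121422 counts, at which 3 counts amount to 0.0964 to 0.184 CPM (counts relative to a TMM-adjusted library size). Pkn2 itself lay at 80.1 to 108 CPM in KO and 62.9 to 138 CPM in WT tumors, and these totals, which include the intact carcinoma cells, do not check the genotype. WT replicates A, B and C stood apart. Their expression deviations were negatively related to gene length (Spearman coefficients across genes of -0.496, -0.446 and -0.171, against 0.10 to 0.372 in the other tumors), and their ribosomal RNA shares were 1.31%, 6.39% and 1.40% of counts, against 0.241% to 0.765% elsewhere. The ribosomal RNA share differed between groups by -1.55 percentage points, KO minus WT (exact permutation test, two-sided, p = 0.0281). The labels name no batch. Carcinoma epithelial markers (8 of 8) had counts in every tumor, with summed levels of 2695 to 5447 CPM in KO and 3088 to 9373 CPM in WT tumors. Acinar and islet markers varied widely between tumors.

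H19 carries microRNA miR-675 in its transcript, and the mature strands are shown because a count on H19 does not report on them. Both come from RefSeq (GRCm38.p6, minus strand), at chr7:142577112-142577133 for the 5p strand and chr7:142577078-142577099 for the 3p strand. Capitals mark the seed, bases 2 to 8.
mmu-miR-675-5p: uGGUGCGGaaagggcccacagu
mmu-miR-675-3p: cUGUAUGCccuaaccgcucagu
The 2 seeds differ, and the Mir675 row had 0 counts in every tumor, in libraries of long RNA. Mir675 shares 84 exon bases with H19 on the same strand, and the default mode of HTSeq counts a read over both genes for neither. The row therefore does not show whether miR-675 was present.

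RefSeq listed a promoter for 9 of the 10 genes. The 250 bases before the RefSeq start of Igf2r and Igfbp5 are shown, since Igf2r had the lowest p among the genes and Igfbp5 the widest range over tumors. Capitals mark GGGCGG, searched on both strands together with TATAAA. The windows are chr17:12769707-12769956 and chr1:72874866-72875115 (GRCm38.p6), both on the minus strand. The starts of RefSeq and GENCODE M21 differ, so that the Igf2r window ends 42 bases before the GENCODE gene and the last 19 bases of the Igfbp5 window lie within it.
Igf2r: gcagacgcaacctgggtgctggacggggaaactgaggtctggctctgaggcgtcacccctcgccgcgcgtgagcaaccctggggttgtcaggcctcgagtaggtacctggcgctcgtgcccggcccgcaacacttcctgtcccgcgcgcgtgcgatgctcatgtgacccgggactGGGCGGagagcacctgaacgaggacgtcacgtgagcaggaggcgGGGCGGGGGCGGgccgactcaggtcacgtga
Igfbp5: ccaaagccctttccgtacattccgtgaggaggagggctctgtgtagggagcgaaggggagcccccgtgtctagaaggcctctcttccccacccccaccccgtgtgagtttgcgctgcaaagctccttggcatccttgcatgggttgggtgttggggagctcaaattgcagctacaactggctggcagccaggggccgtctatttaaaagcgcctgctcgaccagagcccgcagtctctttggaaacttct
The Igf2r window held GGGCGG 3 times and 27 CG dinucleotides, and the Igfbp5 window held GGGCGG 0 times and 10 CG dinucleotides. Neither held TATAAA. Over 32851 promoter windows of this length, 32.7% held GGGCGG, 12.4% held TATAAA, and the median was 6 CG dinucleotides. These matches describe the letters and were not compared with expression.

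To ask whether stromal PKN2 deletion altered the axis, KO and WT tumors were compared with the edgeR quasi-likelihood test, adjusted over all genes tested. None of the 9 tested genes passed an adjusted p of 0.05, where 0.0181% of all genes did. Igf2r alone had an unadjusted p under 0.05 (1 of 9, higher in KO), a threshold passed by 24.0% of all genes, 8.57% higher and 15.5% lower in KO tumors. With DESeq2, which called 8.06% of the genes it adjusted, the count was 1 of 9, again Igf2r. In none of the 9 did KO and WT tumors separate without overlap, as they did for 3.60% of all genes. The median log2 fold change was 0.02 over the 9 genes and -0.03 over all genes tested.

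**Figure D1:**
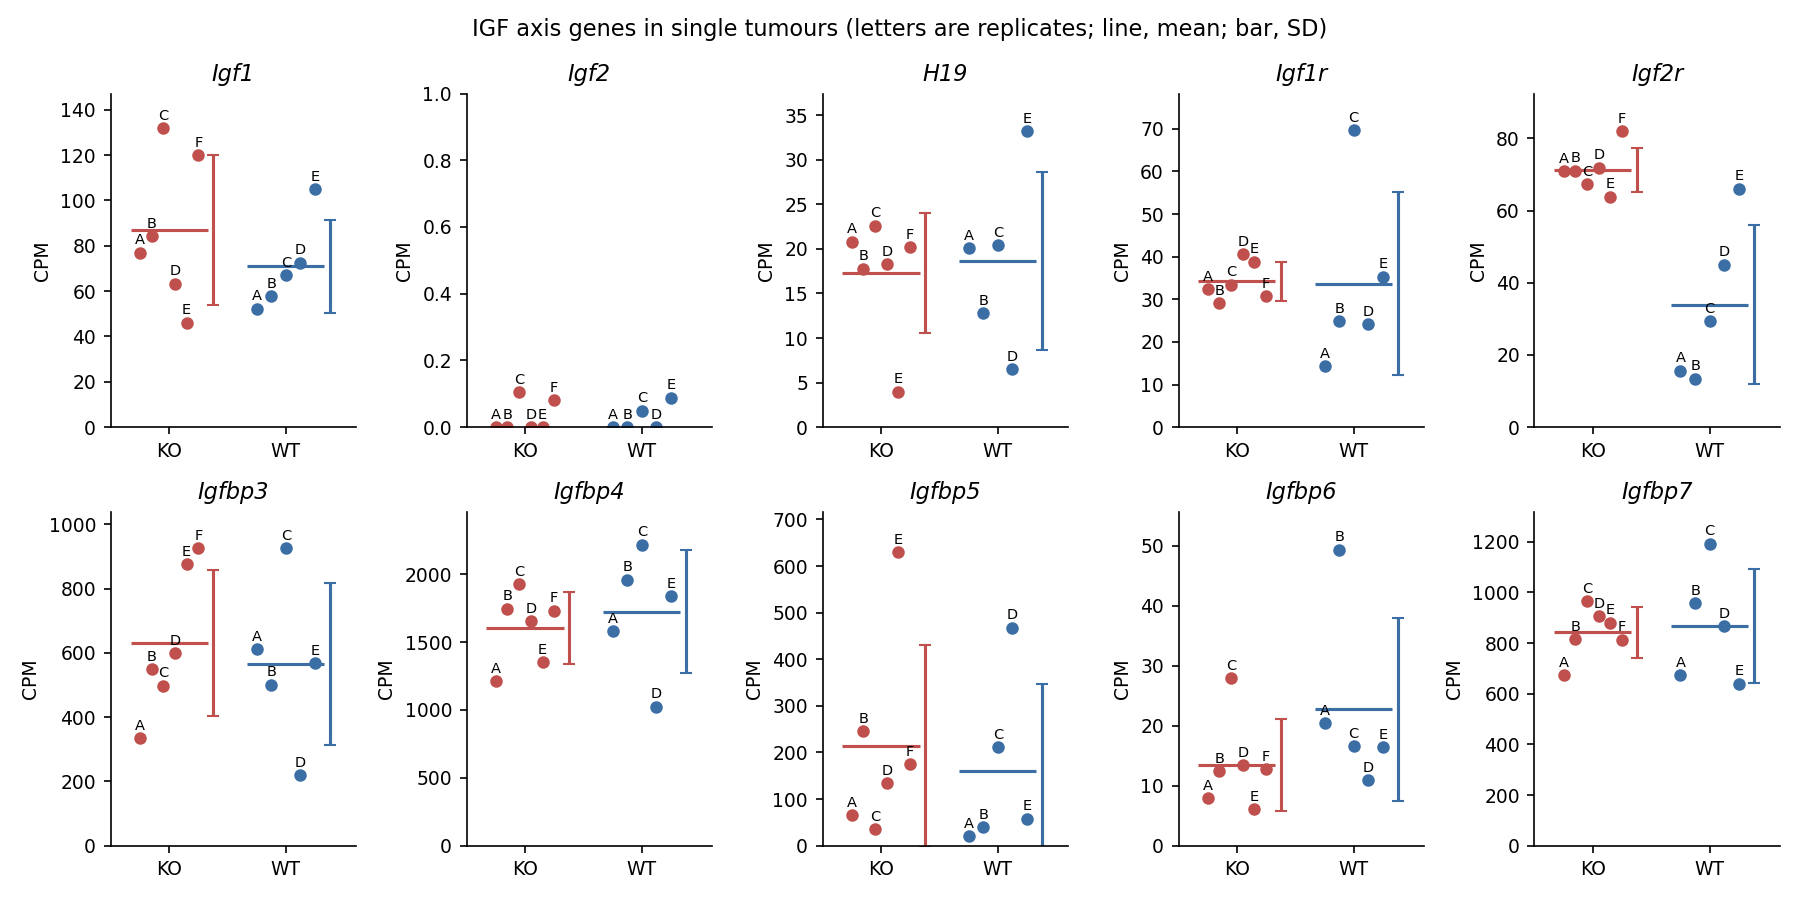
CPM (vertical axis, linear from 0, own scale per panel) of the 10 IGF axis genes in single KO (red) and WT (blue) tumors, with replicate letters, the mean as a line and the SD as a bar (cut at 0 for Igfbp5, and neither drawn for Igf2). KO tumors lie within 63.9 to 82.1 CPM for Igf2r while WT tumors spread from 13.4 to 66.1 CPM, and the groups overlap in every panel.

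Among the ligands, Igf1 (ENSMUSG00000020053, chr10:87858265-87937042, plus strand, protein coding), the growth hormone-responsive ligand of IGF1R, was present in every tumor. Its level was 46.1 CPM at the lowest, 80.6 at the median and 132 at the highest in KO tumors, and 52.3, 57.8, 67, 72.6 and 105 CPM in WT replicates A to E. KO replicates C and F lay above all WT tumors and KO replicate E below them, so that the groups overlapped on both sides. Between groups the log2 fold change was 0.30 (SE 0.27, edgeR adjusted p = 0.513), within the spread between tumors. Without WT replicates A, B and C it was -0.02.

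Igf1 tended to be higher in tumors with higher fibroblast markers. Its log2 CPM correlated with the mean of 10 fibroblast markers at r = 0.80 (Pearson, 11 tumors, permutation p = 0.00352, adjusted p = 0.119 over 135 relations) and rho = 0.72 (permutation p = 0.0155, adjusted p = 0.419), which did not pass the adjustment. Without KO replicates C and F, which lay farthest from the median of Igf1, r was 0.58. Within KO tumors r was 0.81. For macrophage markers r was 0.55 (permutation p = 0.0797, adjusted p = 0.636), and 0.06 without KO replicates C and F. For endothelial markers it was 0.52 (permutation p = 0.104, adjusted p = 0.687). Pdgfra, a receptor that marks fibroblasts and is one of those 10 markers, was the most similar of 10551 genes to Igf1 over the 11 tumors (r = 0.904), followed by the collagen gene Col8a2 (r = 0.884) and Dennd4b (r = 0.875). The 10 fibroblast markers summed to 4559 to 9681 CPM in KO and 2640 to 9569 CPM in WT tumors, none passed an unadjusted p of 0.05, and none was at 0 in any tumor. Their part in the level of Igf1 was not tested.

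Igf2 (ENSMUSG00000048583, chr7:142650766-142666816, minus strand, protein coding), the fetal growth ligand, had 3 and 2 counts in KO replicates C and F, 1 and 3 counts in WT replicates C and E, and 0 in the other 7 tumors. These counts are at or under the 3-count limit in both groups, and no fold is given. They do not show that the transcript was absent. In GENCODE M21 the gene Gm49394 (chr7:142650769-142669942, same strand) covers 3596 of the 5723 exon bases of Igf2, and the default mode of HTSeq counts a read over both genes for neither. Over all exons, 2127 bases, or 37.2%, belonged to Igf2 alone. By transcript this share ran from 0% for Igf2-208 to 74.9% for Igf2-206, and was 3.02% for Igf2-201 (112 of 3708 bases). The row of Gm49394 had 0 counts in every tumor, and that of the antisense gene Igf2os 3 counts in all.

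The insulin genes were read from a separate list of insulin ligands and receptors and were present in few tumors. Ins1 was listed at 22.1 CPM in KO replicate F and at 21.7 and 84.2 CPM in WT replicates A and E, and Ins2 at 25.9, 27.9 and 134 CPM in the same tumors. In every other tumor both lay under 1 CPM. The islet markers, a list that holds both insulin genes, summed to 0.65 to 83.2 CPM in KO and 0.167 to 328 CPM in WT tumors, with Gcg, Sst, Ppy and Iapp at 0 counts in at least 1 tumor each. Ins1 and Ins2 did not pass the filter on low counts.

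H19 (ENSMUSG00000000031, chr7:142575529-142578143, minus strand, long noncoding RNA), which is abundant in fetal tissue and low in most adult organs, was found in all tumors. It lay at 3.98 CPM at the lowest, 19.2 at the median and 22.6 at the highest in KO tumors, and at 20.1, 12.8, 20.4, 6.54 and 33.2 CPM in WT replicates A to E. KO replicate E stood below every other tumor, and the other 5 KO tumors lay between 17.8 and 22.6 CPM. Its log2 fold change was -0.11 (SE 0.43, edgeR adjusted p = 0.898). It was 0.10 without KO replicate E and 0.21 without WT replicate E, so that its sign rested on single tumors. The genes most similar to H19 over the 11 tumors were the nuclear RNA Neat1 (r = 0.902), the caveolar gene Cav1 (r = 0.857) and the complement receptor C5ar1 (r = 0.799).

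The genes around H19 and Igf2 on chromosome 7 were read as a list of 18, of which 14 were tested. None passed the adjusted threshold. At an unadjusted p under 0.05, 0 were higher and 3 lower in KO tumors, where 8.57% and 15.5% of all genes were. The median log2 fold change was -0.41, against -0.03 over all genes. The 3 lay on the side of H19 away from Igf2, where Ctsd at -0.27 and Lsp1 at 0.20 did not pass. Tnni2, a fast skeletal troponin gene 136.3 kb from the start of H19, was at 3.26 to 10.1 CPM in KO tumors (median 6.18) and 42.7, 24.9, 24.3, 13.4 and 15.8 CPM in WT replicates A to E. The groups did not overlap, and the log2 fold change was -1.87 (SE 0.33, edgeR adjusted p = 0.0663). The adjusted p ran from 2.86e-05 with DESeq2 to 0.164 without WT replicates A, B and C, where the log2 fold change was -1.14. Syt8, a synaptotagmin gene, was at -1.27 on the log2 scale (SE 0.47, edgeR adjusted p = 0.135), and the mitochondrial ribosomal gene Mrpl23, the nearest tested gene to H19, one of -0.83 (SE 0.32, edgeR adjusted p = 0.142). Mrpl23 was at 25.8 to 38.6 CPM in KO tumors (median 30.9) and at 68.3, 107, 48.7, 28.9 and 25.9 CPM in WT replicates A to E, so that WT replicates D and E lay within the KO range and WT replicates A, B and C above it. Of the 9 tested genes on the far side of Igf2, 6 were also negative, from Phlda2 at -0.87 (SE 0.44) to Tssc4 at -0.30, and none passed an unadjusted p of 0.05. Cd81, Nap1l4 and Tspan32 were the 3 with positive values, at 0.01, 0.22 and 0.29. Whether the 2 sides of H19 differ was not tested.

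**Figure D2:**
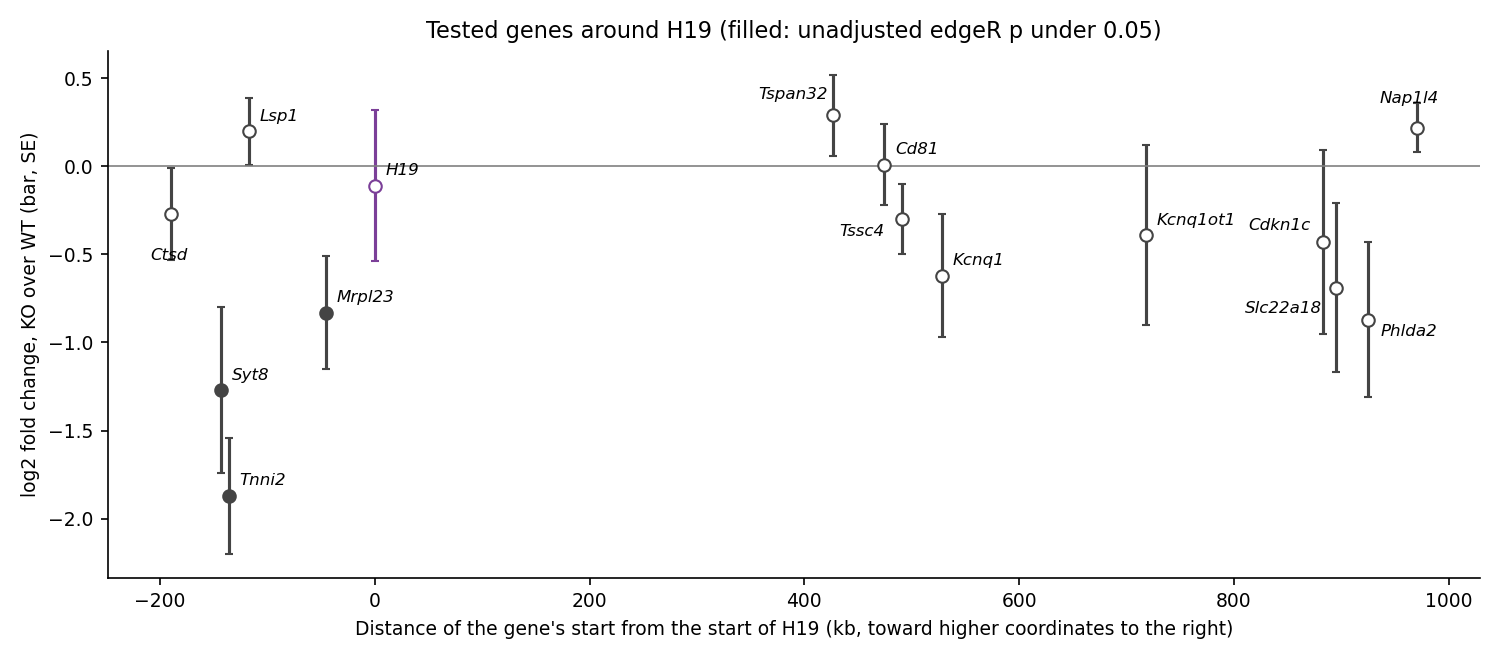
Log2 fold change, KO over WT (vertical axis, SE as bar), of the tested genes around H19 (purple) against the distance of each start from that of H19 in kb (horizontal axis), filled at an unadjusted edgeR p under 0.05. Tnni2 at -1.87, Syt8 at -1.27 and Mrpl23 at -0.83 are the filled points, and H19 at -0.11 lies close to 0.

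A list of 21 genes of the imprinted network was also examined, with 15 tested, none past the adjusted threshold and 0 higher and 2 lower in KO tumors at an unadjusted p under 0.05. Of all genes, 8.57% were higher and 15.5% lower at that threshold. Mest, a paternally expressed gene, lay at 7.1 to 11.6 CPM in KO tumors (median 10.6) and at 14.3, 19.1, 16.9, 18.3 and 18.3 CPM in WT replicates A to E, without overlap. Its log2 fold change was -0.77 (SE 0.18, edgeR adjusted p = 0.0796), with adjusted p from 0.0027 (DESeq2) to 0.269 (replicate block) over 21 alternatives. The maternally expressed RNA Meg3 was at -1.0 (SE 0.38, edgeR adjusted p = 0.144). Sgce and Impact were at 0.36 and 0.15 (edgeR adjusted p = 0.341 and 0.576). The list's median was -0.15.

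Among the receptors, Igf1r (ENSMUSG00000005533, chr7:67952827-68233668, plus strand, protein coding), the signaling receptor, was at 29.1 CPM at the lowest, 32.9 at the median and 40.6 at the highest in KO tumors. In WT replicates A to E it was at 14.3, 24.8, 69.6, 24.2 and 35.3 CPM. WT tumors held both the lowest and the highest values, a 4.86-fold range against 1.40-fold in KO tumors. The log2 fold change was 0.02 (SE 0.32, edgeR adjusted p = 0.973), and ran from -0.17 to 0.47 as single tumors were left out. Bod1l (r = 0.957) and the chromatin remodeler Pbrm1 (r = 0.951) were among the genes most similar to Igf1r.

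Igf2r (ENSMUSG00000023830, chr17:12682406-12769664, minus strand, protein coding), the scavenging and lysosomal sorting receptor, had the largest log2 fold change of the 9 tested genes. It was at 63.9 CPM at the lowest, 71 at the median and 82.1 at the highest in KO tumors, and at 15.7, 13.4, 29.4, 45 and 66.1 CPM in WT replicates A to E. KO tumors lay close together, 5 of 6 above every WT tumor, and WT replicate E lay within the KO range. The means were 71.2 ± 6.13 CPM in KO (SD, n = 6) and 33.9 ± 21.9 CPM in WT (SD, n = 5). On the log2 scale KO exceeded WT by 1.07 (SE 0.35, unadjusted p = 0.00915, edgeR adjusted p = 0.113). DESeq2 gave an adjusted p of 0.0425, and edgeR gave 0.0279 with a log2 fold change of 1.46 without WT replicate E. Over 21 alternatives the adjusted p ran from 0.0279 to 0.331.

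The level of Igf2r moved with the library measures among WT tumors. Igf2r was lowest in WT replicates A and B, which had the most negative coefficients with gene length, and highest in WT replicate E, which had the highest coefficient and the lowest ribosomal RNA share of all tumors. WT replicate D had a coefficient of 0.269, within the KO range of 0.10 to 0.327, and a ribosomal RNA share of 0.765%. Its Igf2r, at 45 CPM, lay below every KO tumor. Among KO tumors, whose ribosomal RNA shares ran from 0.308% to 0.739%, Igf2r differed 1.29-fold. Fitting the ribosomal RNA share alongside genotype gave a log2 fold change of 0.74 (adjusted p = 0.331 by edgeR), and fitting the length trend gave 0.78 (edgeR adjusted p = 0.0561). Without WT replicates A, B and C it was 0.36 (edgeR adjusted p = 0.278). The genes most similar to Igf2r over the 11 tumors were Tln1 (r = 0.988), Rps6ka3 (r = 0.986) and Sorl1 (r = 0.984).

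**Figure D3:**
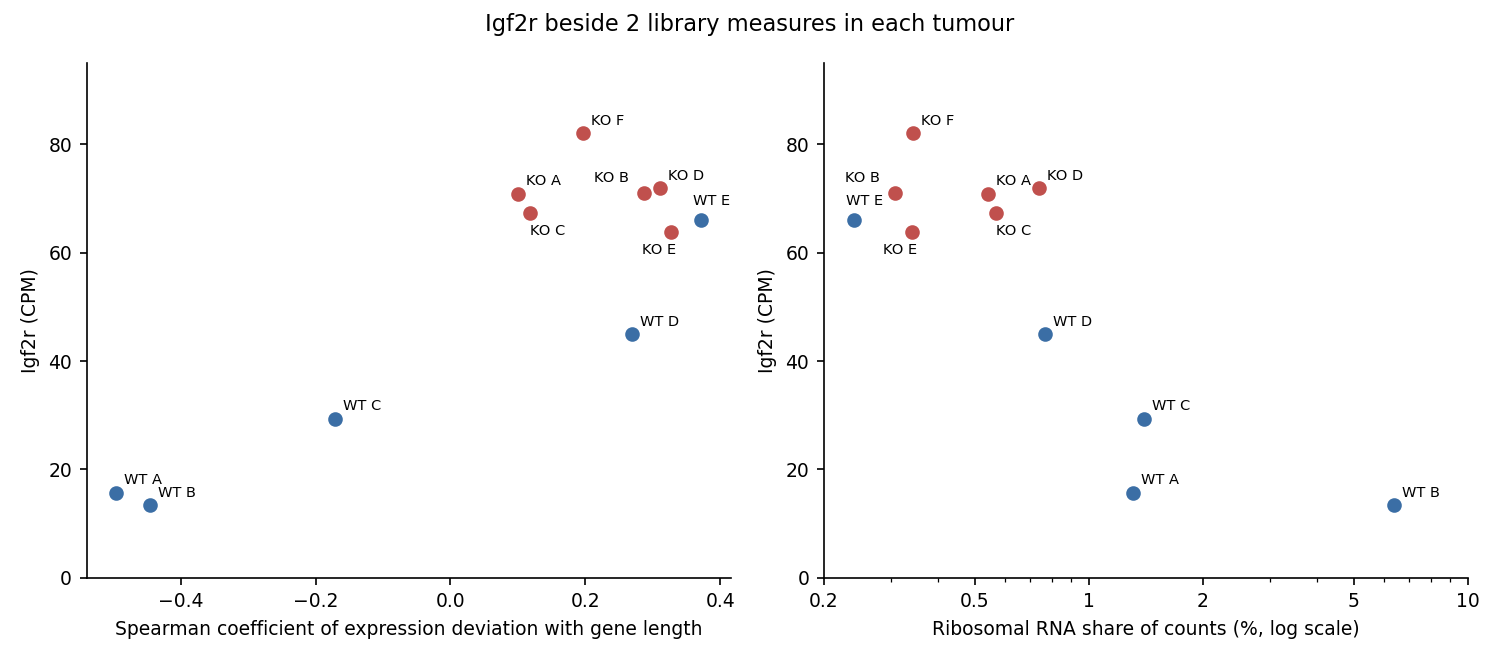
Igf2r in CPM (vertical axes) against the Spearman coefficient of expression deviation with gene length (left) and the ribosomal RNA share of counts in percent (right, log axis) for each KO (red) and WT (blue) tumor. WT replicates A, B and C, with negative coefficients, are at 15.7, 13.4 and 29.4 CPM, and WT replicate E, at 66.1 CPM, sits beside the KO tumors in both panels. WT replicate D, at 45 CPM, lies below every KO tumor with a coefficient of 0.269 and a share of 0.765%.

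Markers of other cells differed between the groups beside Igf2r. At an unadjusted p under 0.05, 8.57% of all genes were higher and 15.5% lower in KO tumors. All 6 B cell markers were higher in KO tumors at an unadjusted p under 0.05 and none after adjustment, with summed levels of 34.8 to 105 CPM in KO and 6.59 to 32 CPM in WT tumors and no marker at 0 in any tumor. Of 9 macrophage markers, 4 were higher at an unadjusted p under 0.05 and none lower, with sums of 2066 to 3833 CPM in KO and 1525 to 2774 CPM in WT tumors and none at 0. Of 6 neutrophil markers, 4 were higher at an unadjusted p under 0.05, with a median log2 fold change of 1.5, sums of 273 to 2249 CPM in KO and 159 to 1007 CPM in WT tumors, and none at 0. The carcinoma epithelial markers went the other way, with 3 of 8 lower at an unadjusted p under 0.05, 0 of 8 positive and a median of -0.80. Igf2r correlated with the mean of the B cell markers at r = 0.80 (permutation p = 0.00134, adjusted p = 0.0904 over 135 relations). Within KO tumors this r was 0.12. For macrophage markers r was 0.59, and 0.76 within KO tumors. For neutrophil markers it was 0.43 and -0.46, for carcinoma epithelial markers -0.09 and -0.05, and for endothelial markers 0.80 and 0.30. Igf2r had its largest r with the library measures. It was 0.90 with the slope of expression deviation on gene length and -0.87 with the log2 ribosomal RNA share (permutation test, adjusted p = 0.119 and 0.054). Within KO tumors these were 0.18 and -0.11. None of these relations passed the adjustment, and the part of these cells or library measures in the level of Igf2r was not tested.

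Per kilobase of exon, the ratio of Igf1r to Igf2r lay between 0.208 and 0.337 in KO tumors and at 0.505, 1.02, 1.31, 0.298 and 0.296 in WT replicates A to E. WT replicates D and E fell within the KO range, and WT replicates A, B and C lay above it. This ratio was formed after the values of both genes had been seen and is given without a test.

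The binding proteins made up most of the axis. On the scale of CPM per kilobase of exon, the median levels over the 11 tumors descended from Igfbp7 (717) through Igfbp4 (392), Igfbp3 (182), Igfbp5 (22.4) and Igfbp6 (12) to H19 (8.17), Igf1 (7.33), Igf2r (7.1), Igf1r (1.93) and Igf2 (0). The order of Igfbp7 over Igfbp4 and of Igfbp4 over Igfbp3 held in 11 of 11 tumors, and that of Igfbp3 over Igfbp5 and of Igfbp6 over H19 in 10 of 11. The order of Igfbp7 over Igfbp4 rested on the division by exon length, which was 1209 bases for Igfbp7 and 4416 for Igfbp4. In CPM, Igfbp4 lay above Igfbp7 in every tumor. Igfbp5 exceeded Igfbp6 in 7 of 11 tumors and H19 exceeded Igf1 in 5 of 11, so that these neighbors were not separated beyond their spread. Of the summed binding protein level per kilobase, Igfbp7 took 46% to 64.8%, Igfbp4 20.9% to 36.1%, Igfbp3 6.34% to 21.1%, Igfbp5 0.304% to 7.37% and Igfbp6 0.385% to 3.06%.

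**Figure D4:**
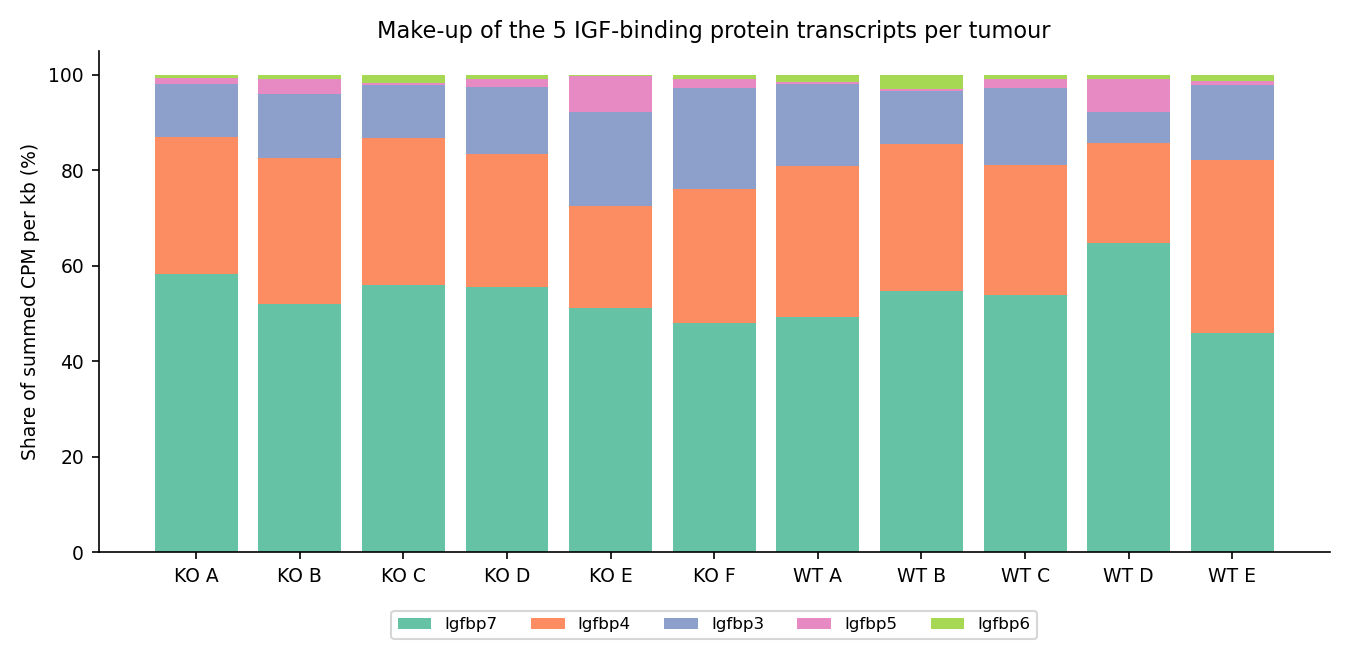
Share of each of the 5 binding protein transcripts in their summed CPM per kilobase of exon (vertical axis, percent) in each tumor (horizontal axis). Igfbp7 is the largest part in every tumor, at 46% to 64.8%, and the Igfbp5 part is widest in KO replicate E at 7.37%.

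Igfbp3 (ENSMUSG00000020427, chr11:7206086-7213923, minus strand, protein coding), the main carrier of IGFs in blood, ranged from 335 to 926 CPM in KO tumors with a median of 574. WT replicates A to E had 611, 501, 925, 219 and 568 CPM. The highest values of both groups were nearly equal, and the log2 fold change was 0.16 (SE 0.34, edgeR adjusted p = 0.802). Cpxm2 was the gene most similar to Igfbp3 (r = 0.853), followed by Nsrp1 (r = 0.837) and Uxs1 (r = 0.821).

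Igfbp4 (ENSMUSG00000017493, chr11:99041244-99054392, plus strand, protein coding), an inhibitor of IGF action that PAPP-A cuts, ranged from 1214 to 1926 CPM in KO tumors with a median of 1692. WT replicates A to E had 1579, 1960, 2216, 1023 and 1837 CPM, and all KO values fell within this range. Its log2 fold change was -0.10 (SE 0.22, edgeR adjusted p = 0.803). Cd59a (r = 0.904) and G6pc3 (r = 0.857) were among the genes most similar to it.

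Igfbp5 (ENSMUSG00000026185, chr1:72857932-72874884, minus strand, protein coding), which binds extracellular matrix, varied most of all the tested genes of the axis. It was at 35.2 CPM at the lowest, 155 at the median and 630 at the highest in KO tumors, and at 20.6, 39, 211, 468 and 57.8 CPM in WT replicates A to E. This 30.6-fold range was spread over both groups, with KO replicate E and WT replicate D highest. The log2 fold change was 0.43 (SE 0.82, edgeR adjusted p = 0.776), and was -0.29 without KO replicate E and 1.39 without WT replicate D. Gtf3c3 (r = 0.923), Dcaf8 (r = 0.914) and Ypel2 (r = 0.907) were most similar to Igfbp5.

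Igfbp6 (ENSMUSG00000023046, chr15:102144362-102149511, plus strand, protein coding), which prefers IGF2, had the largest negative difference. It was at 6.09 CPM at the lowest, 12.6 at the median and 27.9 at the highest in KO tumors, and at 20.4, 49.3, 16.6, 10.9 and 16.4 CPM in WT replicates A to E. KO replicates A and E lay below every WT tumor, and KO replicate C lay above all WT tumors but B. The log2 fold change was -0.76 (SE 0.43, edgeR adjusted p = 0.291). It was -0.26 without WT replicate B and -1.12 without KO replicate C (edgeR adjusted p = 0.755 and 0.172). Without WT replicates A, B and C it was -0.02 (edgeR adjusted p = 0.985), and with the ribosomal RNA share or the length trend in the fit it was -0.12 or -0.20. Mdk (r = 0.965), a heparin-binding growth factor gene, the microfibril gene Mfap5 (r = 0.945) and Mxra7 (r = 0.92) were most similar to Igfbp6.

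Igfbp7 (ENSMUSG00000036256, chr5:77349240-77408041, minus strand, protein coding), a vascular matrix protein with low affinity for IGFs, ranged from 674 to 965 CPM in KO tumors with a median of 848. WT replicates A to E had 673, 958, 1192, 867 and 640 CPM, a range that contained every KO value. With a log2 fold change of -0.04, the means were nearly equal (SE 0.20, edgeR adjusted p = 0.92). Ift74 (r = 0.927), Tbc1d17 (r = 0.874) and Cyp4f16 (r = 0.871) were most similar to it.

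To see which genes of the axis varied together, 36 pairs of the 9 tested genes were correlated on log2 CPM over the 11 tumors, and 0 passed an adjusted p of 0.05, with 5 at an unadjusted permutation p under 0.05 for r. The closest pair was Igfbp5 and Igfbp6, with r = -0.69 (permutation p = 0.0179, adjusted p = 0.259) and rho = -0.76 (permutation p = 0.00872, adjusted p = 0.195). Without WT replicate A and KO replicate E r was -0.59, and within KO tumors it was -0.69. With the slope of expression deviation on gene length, r was 0.64 for Igfbp5 and -0.69 for Igfbp6. Neither passed the adjustment (permutation test, adjusted p = 0.461 and 0.37 over 135 relations). The part of this library measure in the relation of Igfbp5 and Igfbp6 was not tested. Igfbp4 and Igfbp6 correlated at r = 0.64 and rho = 0.75 (permutation p = 0.0342 and 0.0108, adjusted p = 0.259 and 0.195), and r was 0.65 without WT replicate D and KO replicate A. H19 and Igfbp5 had r = -0.66 and rho = -0.56 (permutation p = 0.0199 and 0.0762, adjusted p = 0.259 and 0.549). This relation rested on KO replicate E and WT replicate D, which had the lowest H19 and the highest Igfbp5, and without them r was -0.06.

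The wider pathway was read from lists written with earlier results of these data known. The counts at an unadjusted p under 0.05 stand beside 8.57% of all genes higher and 15.5% lower in KO tumors. Of 8 IGFBP proteases and their inhibitors, all tested, 2 were higher and 0 lower in KO tumors at an unadjusted p under 0.05, with a list median of -0.13. Pappa2, which cuts IGFBP3 and IGFBP5, was at 0.457 to 2.23 CPM in KO tumors (median 0.798) and at 0.0434, 0.167, 0.344, 0.0392 and 0.355 CPM in WT replicates A to E. The groups did not overlap, although several WT values were at or near the 3-count limit. Its log2 fold change was 2.50 (SE 0.63, edgeR adjusted p = 0.0869), with adjusted p from 0.00502 (DESeq2) to 0.269 (replicate block) over 20 alternatives. Pappa, which cuts IGFBP4, was at 2.74 to 11.5 CPM in KO tumors (median 6.91) and at 0.434, 1.17, 3, 2.7 and 4.82 CPM in WT replicates A to E, with 4 of 6 KO tumors above all WT tumors. Its log2 fold change was 1.47 (SE 0.55, edgeR adjusted p = 0.137), with adjusted p from 0.0484 (DESeq2) to 0.456 without WT replicates A, B and C, where it was 0.86. Stc2, an inhibitor of PAPP-A, was at -0.33 (SE 0.70, edgeR adjusted p = 0.80), Adam28 at -0.51 and Ctsd at -0.27 (edgeR adjusted p = 0.314 and 0.535).

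Of the IGF2 mRNA-binding proteins, 3 of 3 were tested and 1 was higher at an unadjusted p under 0.05. Igf2bp3, an oncofetal RNA-binding protein, was at 1.55 to 18.8 CPM in KO tumors (median 6.5) and at 6.42, 0.584, 0.934, 0.666 and 0.65 CPM in WT replicates A to E. WT replicate A was the only WT tumor within the KO range. Its log2 fold change was 2.13 (SE 0.83, edgeR adjusted p = 0.151), and 3.51 without WT replicate A (edgeR adjusted p = 0.127). Igf2bp1 and Igf2bp2 were at -0.22 and 0.35 (edgeR adjusted p = 0.536 and 0.428).

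Of the other receptors and carriers, Insr, the insulin receptor, was at 0.16 (SE 0.27, edgeR adjusted p = 0.743) and Insrr at -0.43 (edgeR adjusted p = 0.668). Igfbp2 was at 0.10 (SE 0.76, edgeR adjusted p = 0.95), and Igfals, which stabilizes IGF complexes in blood, at -0.79 (SE 0.53, edgeR adjusted p = 0.377). None of these 4 genes passed an unadjusted p of 0.05. In each of them the KO and WT ranges overlapped.

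Of 10 tested adaptors of IGF1R, 1 was higher and 1 lower in KO tumors at an unadjusted p under 0.05, with a median log2 fold change of 0.20. Socs2, a feedback inhibitor of growth hormone signaling, was at 35.6 to 56.9 CPM in KO tumors (median 46.6) and at 88.4, 147, 83.1, 34.9 and 59.5 CPM in WT replicates A to E. WT replicate D alone lay below the KO tumors and the other 4 above them, and the log2 fold change was -0.81 (SE 0.29, edgeR adjusted p = 0.126). Without WT replicate D it was -1.0 (edgeR adjusted p = 0.0442), and without WT replicates A, B and C it was -0.00 (edgeR adjusted p = 0.999). Shc1, an adaptor to the RAS arm, was at 0.37 (SE 0.17, edgeR adjusted p = 0.193) and the RAS exchange factor Sos1 at 0.44 (edgeR adjusted p = 0.316). The insulin receptor substrates Irs1 and Irs2 were at 0.46 and 0.50 (edgeR adjusted p = 0.50 and 0.334), and Grb14 at -0.27 (edgeR adjusted p = 0.808). Without WT replicates A, B and C the values were 0.14 for Shc1, 0.00 for Sos1 and 0.00 for Irs2.

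Of 17 genes of the PI3K-AKT-FOXO arm, 3 were higher and 0 lower in KO tumors at an unadjusted p under 0.05, and 14 had a positive log2 fold change, with a median of 0.25. Over all 16536 genes 7943 had a positive value. In WT replicates A, B and C, Tsc2 was at 39.1, 54.9 and 46.2 CPM and Mtor at 21.3, 20.4 and 22 CPM. WT replicates D and E had 88.3 and 89.3 CPM of Tsc2 and 39.6 and 35.8 CPM of Mtor. KO tumors had 64.3 to 88 CPM of Tsc2 and 33 to 42.9 CPM of Mtor. Tsc2 and Mtor were chosen with their values known, and not every gene of the list had this pattern. Pik3ca was at 57.1, 71.1 and 120 CPM and Akt1 at 447, 418 and 271 CPM in WT replicates A, B and C. KO tumors had 69.8 to 91.2 CPM of Pik3ca and 296 to 404 CPM of Akt1. The part of WT replicates A, B and C in the count of positive values was not tested. Foxo4, a transcription factor that AKT inhibits, was at 34.3 to 52.1 CPM in KO tumors (median 44.9) and at 18.8, 17.9, 31.8, 26.5 and 27.3 CPM in WT replicates A to E. The groups did not overlap, and the log2 fold change was 0.84 (SE 0.18, edgeR adjusted p = 0.0786), with adjusted p from 0.00303 (DESeq2) to 0.269 (replicate block) over 21 alternatives. Foxo3, another of these genes, was at 0.58 (SE 0.24, edgeR adjusted p = 0.176). The PI3K subunits Pik3r2 and Pik3ca were at -0.27 and -0.07 (edgeR adjusted p = 0.454 and 0.846).

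**Figure D5:**
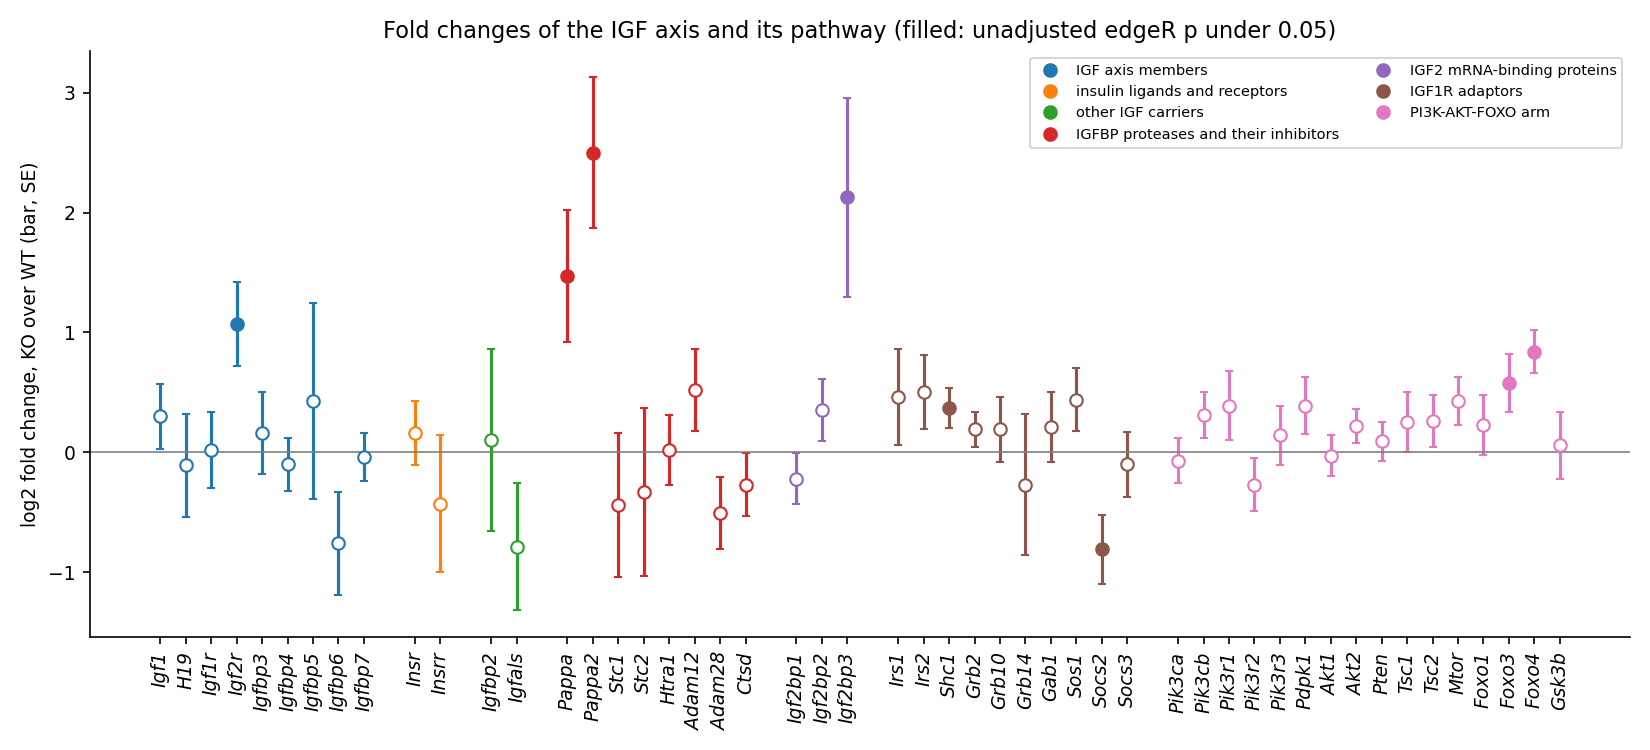
Log2 fold change, KO over WT (vertical axis, SE as bar), of tested genes of the axis and of 6 pathway lists (colors), filled at an unadjusted edgeR p under 0.05. Pappa2 at 2.50, Igf2bp3 at 2.13 and Pappa at 1.47 lie highest, Igf2r at 1.07 is the filled point among the axis genes, and Socs2 at -0.81 is the filled point below 0.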

How the data were processed

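RNA was measured in 11 tumors. Per the study's methods and the submitters' processing notes, strand-specific paired-end reads were demultiplexed with bcl2fastq 2.19, trimmed with Trimmomatic, aligned to mm10 (GRCm38) with HISAT2 2.1.0, filtered to unique alignments and counted over exons with HTSeq 0.11.2. The authors deposited raw counts, which were used for all tests, and a normalized signal, which in each tumor was the raw count divided by 1 factor. Unique-read counting drops reads shared between gene copies, and how reads over overlapping genes were treated is not given in the sources used here. Groups and replicate letters came from the sample titles. Replicates were separate animals. Every pair of libraries within a group differed by more than sampling noise (lowest chi-square per degree of freedom 33.9).

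Of 54232 identifiers, 54165 matched GENCODE M21 symbols. KO and WT were compared with edgeR 4.0.16 (R 4.3.3; quasi-likelihood F-test, TMM, filterByExpr, no covariate, Benjamini-Hochberg over 16536 genes). SE was obtained from the log2 fold change and the square root of F. CPM used TMM-scaled totals, and log2 CPM for correlations a prior count of 2. Correlations had 100000 permutations; the 45 planned pairs became 36, since Igf2 was not tested. Alternatives used DESeq2 1.42.0, limma 3.58.1, other filters, an exact permutation test over 462 splits, covariates, a replicate block and omitted tumors. The edgeR script was tested on simulated data. Named pathway genes were, per list, at most 2 per direction with the smallest p, plus direct partners of the axis. Mrpl23, Foxo3, Ins1, Ins2, Tsc2, Mtor, Akt1, Phlda2, Tssc4, Cd81 and Lsp1 were added outside this rule with their values known. Similar genes were the 3 with the highest r among 10551 genes averaging at least 10 CPM. The genes and lists were chosen with earlier results of these data known. The relations with marker lists and library measures and the receptor ratio were chosen after seeing the data. Some genes that these rules name are not reported here.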

Additional observations from a re-analysis of the deposited data

Results flagged for a closer look

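H19 in KO replicate E stood far below the rest of its group, at 3.98 CPM against 17.8 to 22.6 CPM in the other 5 KO tumors. On the log2 scale, the gap to its nearest neighbor was 0.863 of the group's range, over Dixon's critical value of 0.625. It was the 1 flag among 20 groups examined (the 9 tested genes and the ribosomal RNA share, in 2 genotypes), where chance gives about 1. The same tumor had the highest Igfbp5 of all 11 tumors, at 630 CPM, and the lowest Igf1 and Igfbp6, at 46.1 and 6.09 CPM.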

How the results depend on the processing

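Igf2r was higher in KO tumors under all 21 alternatives, with log2 fold changes of 0.36 to 1.46, and passed the adjusted threshold under 2 of them, DESeq2 and without WT replicate E. The count of axis genes called was 0 with edgeR, 1 with DESeq2, and 0 to 1 as single tumors were left out. At an unadjusted p under 0.05 it was 1 to 2 on leaving out tumors. Over all genes, edgeR called 3 higher and 0 lower, with 3972 at an unadjusted p under 0.05. DESeq2 called 595 and 900, the unfiltered fit 39 and 6, limma on normalized counts 40 and 6, the length covariate 6 and 3, and single-tumor omissions 0 to 608 and 0 to 1248, both highest without WT replicate E. A minimum of 10 counts in every tumor gave 0 higher (3514 at an unadjusted p under 0.05), and the exact permutation test 0 higher (3499 at an unadjusted p under 0.05). The ribosomal RNA covariate gave 1 lower, and the fit without WT replicates A, B and C gave 3 lower. The ribosomal RNA difference was -1.99 to -0.456 percentage points on omissions, with p over 0.05 in 9 of 11.

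The replicate block gave 8 genes higher and 1 lower, and for Igf2r a log2 fold change of 1.28 (edgeR adjusted p = 0.269). The letters mark different animals, and same-letter deviations correlated at -0.135 to 0.118, with 1 of 5 letters correlating best with its own number.

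Small fold changes turned sign. Without WT replicates A, B and C the values were Igf1 -0.02, Igfbp4 0.17, Igfbp5 -0.30, Igfbp7 0.16, Insr -0.26, Adam28 0.09, Ctsd 0.31, Igf2bp2 -0.09, Impact -0.02 and Stc2 1.04. With the ribosomal RNA covariate they were Igf1r -0.08, Igfbp5 -0.08, Igfbp7 0.04 and Igfbp2 -0.07, and with the length covariate Igf1r -0.16, Igfbp5 -0.25, Insr -0.09 and Stc2 0.18. Limma gave Igfbp7 0.01, Grb14 0.32 and Stc2 0.60, the unfiltered fit Igfbp7 0.01, the permutation test Grb14 0.29 and Stc2 0.55, and the replicate block Grb14 0.50 and Stc2 0.39. On leaving out single tumors the ranges were H19 -0.32 to 0.21, Igf1r -0.17 to 0.47, Igfbp3 -0.04 to 0.41, Igfbp4 -0.24 to 0.00, Igfbp5 -0.29 to 1.39, Igfbp7 -0.13 to 0.10, Insr -0.04 to 0.30, Igfbp2 -0.25 to 1.17, Grb14 -0.51 to 0.89, Pik3ca -0.20 to 0.05 and Stc2 -0.63 to 0.40. The causes were not tested. None of these genes passed an adjusted threshold under any alternative. Depth limited Igf2 and, among WT tumors, Pappa2.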
